A study of Mus musculus with 8 samples.

Results

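This account follows 32 genes of cholesterol synthesis and sterol handling through hair plucking in mouse skin. The genes were taken by name on the array, with control spots left out, and all 32 of 32 were found among the 34790 gene names measured. They fall into 19 enzymes of cholesterol synthesis, 4 regulators of the SREBP pathway, 3 sterol carriers, the 2 liver X receptors and 4 of those receptors' target genes. The RNA came from the back skin of female C57BL/6 mice whose hair follicles were resting (telogen) when club hairs were pulled out with wax. One sample was taken just after shaving, with no plucking. The others came 12 h after plucking and on days 1, 2, 4, 6, 10 and 50, so that each of the 8 groups is 1 array. The age labels read 10 weeks for the shaved mouse and until day 4, 11 weeks for days 6 and 10, and 17 weeks for day 50, while the treatment protocol gives a younger age that the files do not reconcile with these. No allele, transgene or drug is named for any group. The labels call the material adipose cells, while the design text describes tissue from outside the follicles that holds both fat and dermis.

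Cells make cholesterol from acetyl-CoA through mevalonate, squalene and lanosterol. When sterols in the endoplasmic reticulum run low, SCAP carries the transcription factor SREBP2 to the Golgi, where it is cut and freed to switch on the synthesis genes, and when sterols are plentiful the INSIG proteins hold SCAP back. Oxysterols, which accompany a sterol surplus, activate the liver X receptors (LXR), whose targets export cholesterol or degrade its receptors. Fat cells store much free cholesterol but make little of it, while the epidermis and its sebaceous glands make sterols for the skin's surface barrier.

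The sequence before the start of 3 synthesis genes is shown because SREBP2 and its partner NF-Y are known to read promoter letters in genes of this pathway. How many members hold each sequence is counted below. Each line gives the 250 bases before the transcription start from RefSeq on the GRCm38.p6 build, from 5′ to 3′ on the gene's strand. Capitals mark TCACNCCAC, an SRE-like sequence, and CCAAT, the NF-Y box, each on either strand, so that ATTGG is CCAAT read on the other strand. Hmgcs1 lies at chr13:119690101-119690350 on the plus strand, Idi1 at chr13:8885356-8885605 on the plus strand and Cyp51 at chr5:4104698-4104947 on the minus strand.
Hmgcs1: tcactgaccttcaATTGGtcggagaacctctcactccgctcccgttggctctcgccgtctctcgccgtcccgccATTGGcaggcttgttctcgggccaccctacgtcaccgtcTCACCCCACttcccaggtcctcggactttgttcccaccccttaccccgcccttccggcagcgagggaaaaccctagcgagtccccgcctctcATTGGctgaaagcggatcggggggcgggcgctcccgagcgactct
Idi1: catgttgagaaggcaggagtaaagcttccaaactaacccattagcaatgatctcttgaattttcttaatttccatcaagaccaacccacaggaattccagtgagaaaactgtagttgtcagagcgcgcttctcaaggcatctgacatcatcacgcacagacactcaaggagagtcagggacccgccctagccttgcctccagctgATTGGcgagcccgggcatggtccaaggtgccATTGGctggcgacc
Cyp51: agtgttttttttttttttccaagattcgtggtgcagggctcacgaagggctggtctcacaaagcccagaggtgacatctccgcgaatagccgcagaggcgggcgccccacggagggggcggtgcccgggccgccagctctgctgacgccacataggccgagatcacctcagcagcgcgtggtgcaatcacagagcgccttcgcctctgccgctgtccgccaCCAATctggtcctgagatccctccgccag

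Of the 19 enzymes 16 had a promoter entry, all but Fdps, Fdft1 and Sqle. All 32 members were matched to RefSeq through the transcripts named for their probes (Sc4mol as Msmo1). CCAAT was found in 15 of these 16, on either strand, against 37.5% of 27025 genes with an entry. It was present in all 7 of the enzymes with an entry that were at least 2-fold higher on day 4 and in 8 of the 9 others. With the box in 15 of 16, it could not separate enzymes that moved most from the others, so nothing is read from this split. Fdps and Sqle, also at least 2-fold higher on day 4, are not in it. TCACNCCAC was found in Hmgcs1, 137 bases before the start, and in none of the other 15, against 1.22% of genes. The E-box CACGTG was found in 3 of 16 enzymes against 6.86% of genes. The LXR half-site repeat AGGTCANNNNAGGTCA was found in none of the 3 LXR targets with an entry, against 0.0148% of genes. None of these 4 motifs contains another. A match is a description of these letters in this window.

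Levels are given below as log2 of the processed spot intensity minus the 75th percentile of its array, so that a difference of 1 is 2-fold, and levels of different genes are not compared because each rests on its own probe. All 32 members were well above background on all 8 arrays, and 0 spots were saturated. With 1 array per group there is no replicate check and no test. The only error measured is technical: spots of one probe varied by an SD of 0.055 to 0.088, and the differences given by different probes of one gene by a median SD of 0.146 to 0.174. Between 72.9% and 81.2% of spots were well above background per array, and the day 10 array's spike-in slope, 0.891, lay outside the scanner software's range. A gene counts as 2-fold higher or lower where its log2 difference is 1 or more either way and the array software calls it well above background on whichever of both arrays is brighter. The median of all genes tested lay between -0.09 and 0.02 from the shaved array except on day 4, where it was -0.13.

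The synthesis enzymes were higher than on the shaved array from 12 h to day 6, with a peak on day 4, lay slightly below it on day 10 and above it again on day 50. Their median difference was 0.28 at 12 h, 0.36 on day 1, 0.40 on day 2, 0.84 on day 4, 0.27 on day 6, -0.24 on day 10 and 0.58 on day 50. On day 4, 18 of the 19 lay above the shaved array, where 38.4% of all genes tested did, and 9 were at least 2-fold higher, where 5.89% were. Fdft1 is counted among the 18 by its brighter probe (0.54), while its other probe gave -0.60. Over the whole list of 32, 10 were at least 2-fold higher on day 4, the tenth being the sterol carrier Stard4. No enzyme was 2-fold lower at any time. The count of enzymes at least 2-fold higher was 1 at 12 h (3.9% of genes), 2 on day 1 (2.67%), 0 on day 2 (2.56%), 5 on day 6 (4.24%), 0 on day 10 (3.76%) and 3 on day 50 (2.72%). At 12 h, day 1 and day 2 the count was therefore small even though 14, 16 and 17 of the 19 enzymes were above the shaved array (44.3%, 53.0% and 51.1% of genes), because most differences were below 2-fold.

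**Figure D1:**
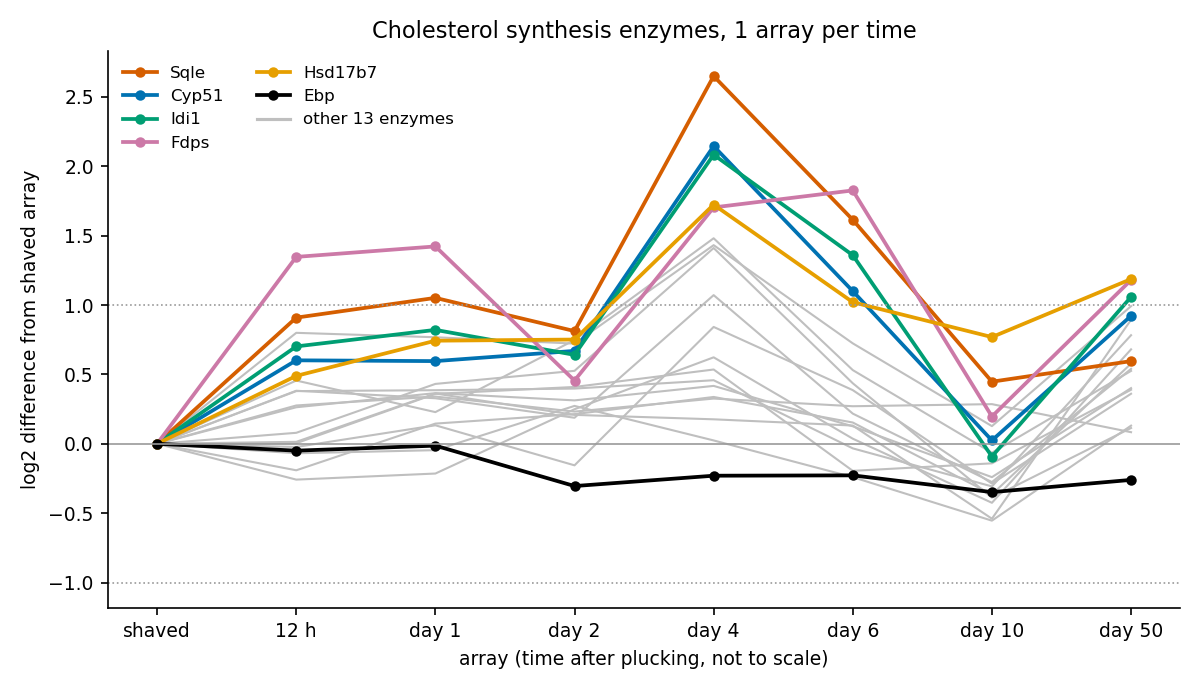
Log2 difference from the shaved array (vertical axis) of each of the 19 synthesis enzymes on the 8 arrays in time order (horizontal axis, not to scale), 1 array per point. Coloured lines are the 5 enzymes with the largest differences on day 4 and Ebp, grey lines the others, and dotted lines mark 2-fold; most lines peak on day 4, where Sqle reached 2.65, and Ebp stayed below 0 at all 7 times.

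The first stage of the pathway builds isoprenoids from acetyl-CoA, and 8 of the enzymes belong to it. Their median was 0.65 on day 4, and 3 of the 8 were at least 2-fold higher there. Hmgcs1, the synthase that makes HMG-CoA, had levels of 3.27 on the shaved array, 4.07 at 12 h, 4.03 on day 1, 3.99 on day 2, 4.70 on day 4, 3.99 on day 6, 3.39 on day 10 and 4.26 on day 50. It was highest on day 4, at 2.7 times the shaved level, and every plucked array lay above the shaved one. Its second probe was well above background on only 1 of 8 arrays, and the mean of both probes gave a day 4 difference of 0.98, just under 2-fold; both probes are placed by the array files on an unassigned part of chromosome 13 in mm9. Idi1, which turns isopentenyl diphosphate into its reactive isomer, read 0.53 on the shaved array, 1.23 at 12 h, 1.35 on day 1, 1.17 on day 2, 2.61 on day 4, 1.89 on day 6, 0.44 on day 10 and 1.59 on day 50 (probe at mm9 chr13:8891524-8891583). The day 4 array stood 4.24-fold above the shaved one, the other plucked arrays except day 10 lay between them, and day 10 differed from shaved by -0.09. Fdps, the farnesyl diphosphate synthase at the branch between sterols and protein prenylation, read 1.92 on the shaved array, 3.27 at 12 h, 3.34 on day 1, 2.38 on day 2, 3.62 on day 4, 3.75 on day 6, 2.12 on day 10 and 3.10 on day 50 (probe at mm9 chr3:88897549-88897608). It is the enzyme that was already 2-fold higher at 12 h and again on day 1, was lower on day 2, and was highest on day 4 and day 6, whose levels differ by 0.12, less than the technical spread between probes.

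The other 5 isoprenoid enzymes stayed within 2-fold of the shaved array at every time. The mevalonate kinase Mvk differed most on day 4, by 0.84. The phosphomevalonate kinase Pmvk differed by 0.46 on day 4 and by 0.78 on day 50, and the decarboxylase Mvd by 0.42 and 0.40. Ggps1, which makes the prenyl group attached to small GTPases rather than a sterol precursor, stayed between 0.08 and 0.34 at all 7 times. Acat2, the thiolase that opens the pathway, was 0.02 on day 4 and -0.55 on day 10. The 3 enzymes that passed 2-fold therefore sit before, at and after the isomerase step, and the kinases and decarboxylase between Hmgcs1 and Idi1 did not pass it.

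The second stage joins farnesyl units to squalene and closes it to lanosterol, and its 3 enzymes had a median of 1.48 on day 4. Sqle, the squalene epoxidase and a rate-limiting step, showed the largest difference of all 32 members at any time. Its levels were 0.34 on the shaved array, 1.25 at 12 h, 1.39 on day 1, 1.15 on day 2, 2.99 on day 4, 1.95 on day 6, 0.79 on day 10 and 0.93 on day 50 (probe at mm9 chr15:59162688-59162747). That is 6.28-fold over shaved on day 4, 2-fold or more on day 1, day 4 and day 6, and 0.45 above shaved on day 10. Lss, the lanosterol synthase, read -2.51 on the shaved array, -2.06 at 12 h, -2.28 on day 1, -1.76 on day 2, -1.03 on day 4, -1.98 on day 6, -2.58 on day 10 and -1.99 on day 50. It was 2.79-fold over shaved on day 4 and within 2-fold at the other 6 times. Fdft1, the squalene synthase, differed by 0.54 on day 4 on its brighter probe and by -0.60 on its other probe, and the 2 probes had the same sign at only 2 of 7 times, so no direction is given for it.

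The third stage turns lanosterol into cholesterol in 8 enzymes, of which 4 were at least 2-fold higher on day 4 and whose median there was 0.85. Cyp51, the demethylase that acts first on lanosterol, had levels of -2.52 on the shaved array, -1.92 at 12 h, -1.93 on day 1, -1.85 on day 2, -0.38 on day 4, -1.42 on day 6, -2.50 on day 10 and -1.60 on day 50 (probe at mm9 chr5:4081471-4081530). It stood 4.43-fold above the shaved array on day 4 and was equal to it, within 0.02, on day 10. Sc4mol, the methylsterol oxidase now named Msmo1, read 2.15 on the shaved array, 2.22 at 12 h, 2.58 on day 1, 2.67 on day 2, 3.56 on day 4, 2.58 on day 6, 1.76 on day 10 and 2.26 on day 50. It was 2.66-fold over shaved on day 4 and lowest on day 10. Hsd17b7, a keto-reductase of the same demethylation complex, read -1.98 on the shaved array, -1.49 at 12 h, -1.24 on day 1, -1.23 on day 2, -0.26 on day 4, -0.96 on day 6, -1.21 on day 10 and -0.79 on day 50. It was above shaved on all 7 plucked arrays and 3.3-fold so on day 4, but its 3 probes agreed in sign at 4 of 7 times and lay up to 1.27 apart. That gap is on day 4, where the other probes gave 1.28 and 0.45. Dhcr7, the reductase of the last step of one branch, read -0.95 on the shaved array, -0.57 at 12 h, -0.63 on day 1, -0.77 on day 2, 0.12 on day 4, -0.74 on day 6, -1.23 on day 10 and -0.41 on day 50, and was 2.1-fold over shaved on day 4.

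The remaining 4 enzymes of this stage did not pass 2-fold at any time. The sterol dehydrogenase Nsdhl differed by 0.62 on day 4 and 0.68 on day 50, and the sterol reductase Tm7sf2 by 0.34 and 0.58. The desaturase Sc5d had its largest difference on day 50, at 0.89, with 0.18 on day 4. Ebp, the sterol isomerase, was the single enzyme of the 19 that lay below the shaved array at all 7 times, with a difference of -0.35 at most.

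**Figure D2:**
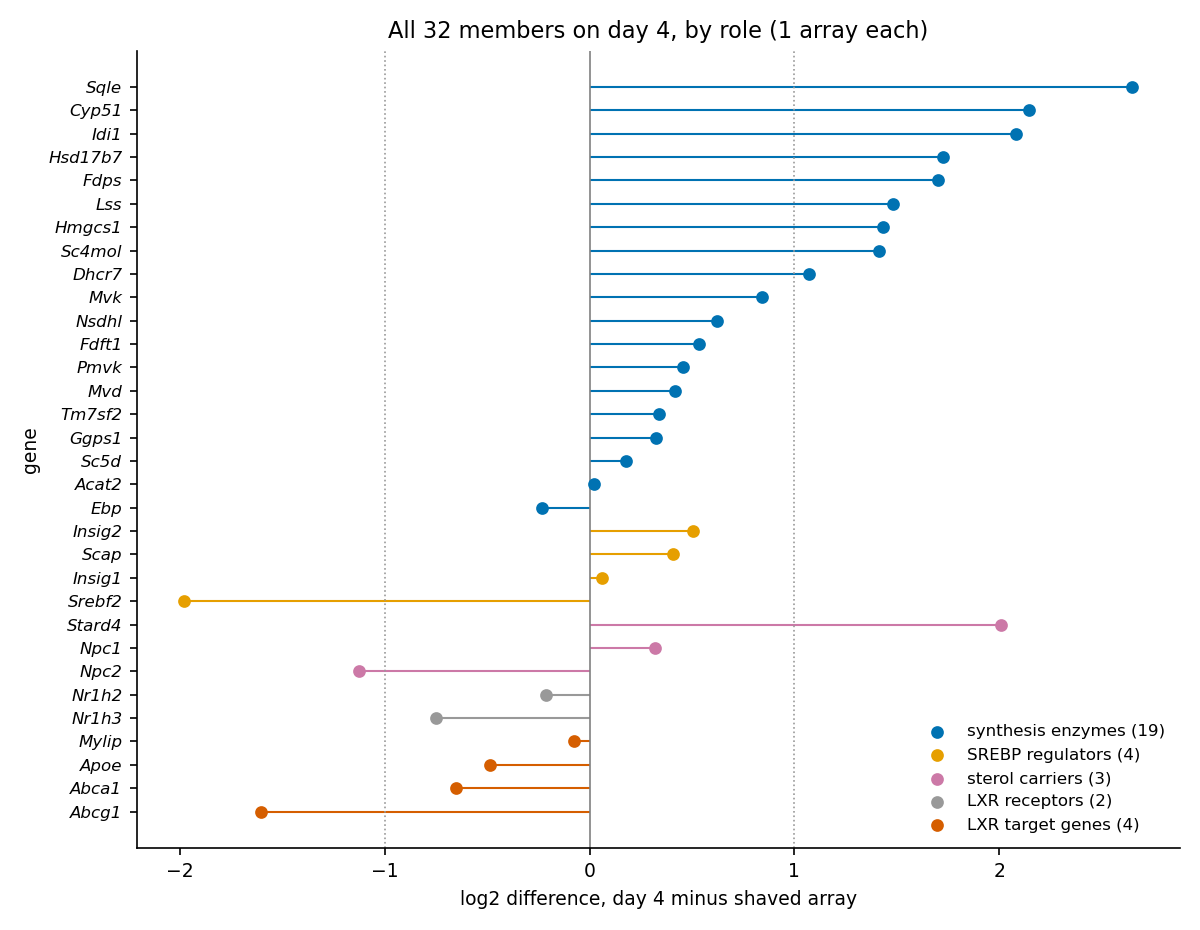
Log2 difference between the day 4 array and the shaved array (horizontal axis) for all 32 members (vertical axis), coloured by role and sorted within each role, 1 array per group; dotted lines mark 2-fold. The 9 enzymes from Sqle to Dhcr7 and the carrier Stard4 lie beyond 2-fold on the right, and Srebf2 (by its brighter probe), Npc2 and Abcg1 beyond it on the left.

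Among the regulators, Srebf2 encodes SREBP2, the activator of these synthesis genes. Its brighter probe, at mm9 chr15:82030068-82030127, read 1.76 on the shaved array, 0.65 at 12 h, 0.23 on day 1, 0.09 on day 2, -0.22 on day 4, 0.61 on day 6, 1.06 on day 10 and 0.27 on day 50. On that probe every plucked array lay below the shaved one, with differences from -0.70 on day 10 to -1.98 on day 4. It was at least 2-fold lower at 12 h (3.36% of genes), day 1 (3.21%), day 2 (3.58%), day 4 (6.62%), day 6 (2.12%) and day 50 (4.41%), and not on day 10 (2.29%). The second probe, 3′ of it at mm9 chr15:82034765-82034824 and also well above background on all 8 arrays, gave differences of 0.23 at 12 h, 0.17 on day 1, -0.39 on day 2, 0.65 on day 4, 0.63 on day 6 and -0.04 on both day 10 and day 50. The probes had the same sign at 3 of 7 times and lay up to 2.63 apart, so the direction of Srebf2 is not settled by these arrays.

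**Figure D3:**
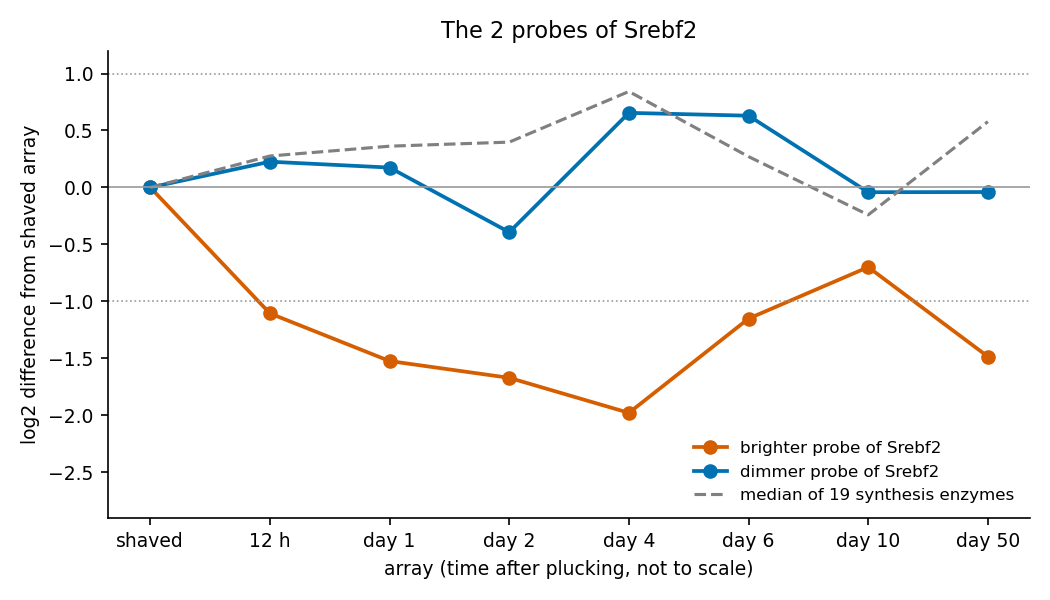
Log2 difference from the shaved array (vertical axis) for the brighter and the dimmer probe of Srebf2 on the 8 arrays in time order (horizontal axis, not to scale), with the median of the 19 synthesis enzymes as a dashed line and dotted lines at 2-fold. The brighter probe reached -1.98 on day 4, where the dimmer one was at 0.65.

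Insig1 holds SCAP in the endoplasmic reticulum and is itself a target of SREBP, yet it did not follow the enzymes on day 4. Its levels were -0.58 on the shaved array, -1.25 at 12 h, 0.06 on day 1, -0.02 on day 2, -0.52 on day 4, -0.71 on day 6, -0.90 on day 10 and 0.48 on day 50. It was lowest at 12 h, with a difference of -0.67, near the shaved level on day 4, with a difference of 0.06, and highest on day 50, at 2.09-fold. Its relative Insig2 differed by 0.50 on day 4 and 0.59 on day 50, and the escort protein Scap by 0.41 and 0.07, with neither 2-fold from shaved at any time.

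The sterol carriers moved in both directions. Stard4, a soluble cholesterol carrier and known SREBP2 target, read -1.50 on the shaved array, -0.58 at 12 h, -0.53 on day 1, -0.94 on day 2, 0.51 on day 4, -0.38 on day 6, -1.42 on day 10 and -0.94 on day 50. It followed the enzymes, at 4.03-fold over shaved on day 4 and 0.08 above it on day 10, and its second probe, well above background on 3 of 8 arrays, gave 1.24 on day 4. Npc2, the lysosomal protein that hands cholesterol to the lysosome's membrane, read 5.22 on the shaved array, 4.50 at 12 h, 4.34 on day 1, 4.41 on day 2, 4.09 on day 4, 4.50 on day 6, 4.48 on day 10 and 4.51 on day 50. All 7 plucked arrays lay below the shaved one, and day 4 was the lowest, at 2.18-fold less. Its membrane partner Npc1 stayed within 0.70 of shaved, at 0.32 on day 4 and -0.38 on day 50.

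The receptor genes were within 2-fold of shaved throughout. Nr1h3, which encodes LXR alpha, the form abundant in fat, liver and macrophages, differed by 0.41 at 12 h, 0.35 on day 1 and 0.30 on day 2, and by -0.75 on day 4, -0.94 on day 6 and -0.56 on day 10, with 0.05 on day 50. Its 2 probes had the same sign at all 7 times and lay at most 0.13 apart. Nr1h2, the widely expressed LXR beta, stayed between -0.39 and 0.07.

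The 4 LXR target genes were all lower than on the shaved array on day 1, day 4, day 6 and day 50, mostly by less than 2-fold. On those days 53.0%, 38.4%, 39.6% and 49.1% of all genes tested lay above the shaved array. For Mylip, by its brighter probe, the differences on day 1, day 4 and day 6 were -0.08, -0.08 and -0.14. These are smaller than the technical spread between probes, so Mylip is lower there in sign only. Abcg1, a transporter that passes cholesterol to HDL particles, read 3.31 on the shaved array, 3.26 at 12 h, 2.46 on day 1, 2.18 on day 2, 1.70 on day 4, 2.56 on day 6, 2.85 on day 10 and 1.79 on day 50 (probe at mm9 chr17:31252580-31252639). It was 3.04-fold lower on day 4 and 2.86-fold lower on day 50, also 2-fold lower on day 2, and nearly level with shaved at 12 h. Of all genes tested, 6.62% were at least 2-fold lower on day 4, 4.41% on day 50 and 3.58% on day 2. Abcg1 was the single LXR target to pass 2-fold. Abca1, which loads cholesterol onto lipid-poor apolipoproteins, read 3.70 on the shaved array, 3.39 at 12 h, 3.41 on day 1, 3.58 on day 2, 3.04 on day 4, 3.37 on day 6, 3.77 on day 10 and 3.01 on day 50. It was lowest on day 50 and day 4, 1.6-fold and 1.57-fold below shaved, and highest on day 10. Apoe, the apolipoprotein that carries cholesterol between cells, read 7.98 on the shaved array, 7.76 at 12 h, 7.81 on day 1, 7.99 on day 2, 7.50 on day 4, 7.55 on day 6, 8.15 on day 10 and 7.22 on day 50. It too was lowest on day 50, 1.69-fold below shaved, and highest on day 10. Mylip, the ligase that tags lipoprotein receptors for degradation, read 2.47 on the shaved array, 2.70 at 12 h, 2.38 on day 1, 2.91 on day 2, 2.39 on day 4, 2.32 on day 6, 2.79 on day 10 and 2.12 on day 50. Its differences ran from -0.35 on day 50 to 0.44 on day 2, and its second probe gave -0.79 on day 4 where the brighter gave -0.08.

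Set side by side, the enzymes and the LXR targets differed most on day 4 and on day 50. The LXR target median was -0.14 at 12 h, -0.23 on day 1, -0.05 on day 2, -0.57 on day 4, -0.38 on day 6, 0.12 on day 10 and -0.72 on day 50. The enzyme median minus this median was 0.41 at 12 h, 0.59 on day 1, 0.45 on day 2, 1.41 on day 4, 0.65 on day 6 and 1.30 on day 50, and it turned to -0.36 on day 10. On day 4, 18 of the 19 enzymes had a larger difference than every one of the 4 targets, the exception being Ebp, and on day 50 all 19 had. By its other probe (-0.60 on day 4) Fdft1 would not be among the 18. On day 10 only 2 of 19 had. The all-gene median in the same comparisons was -0.13 on day 4 and -0.01 on day 50, between both lists. These are medians over genes of single arrays, not averages over mice.

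**Figure D4:**
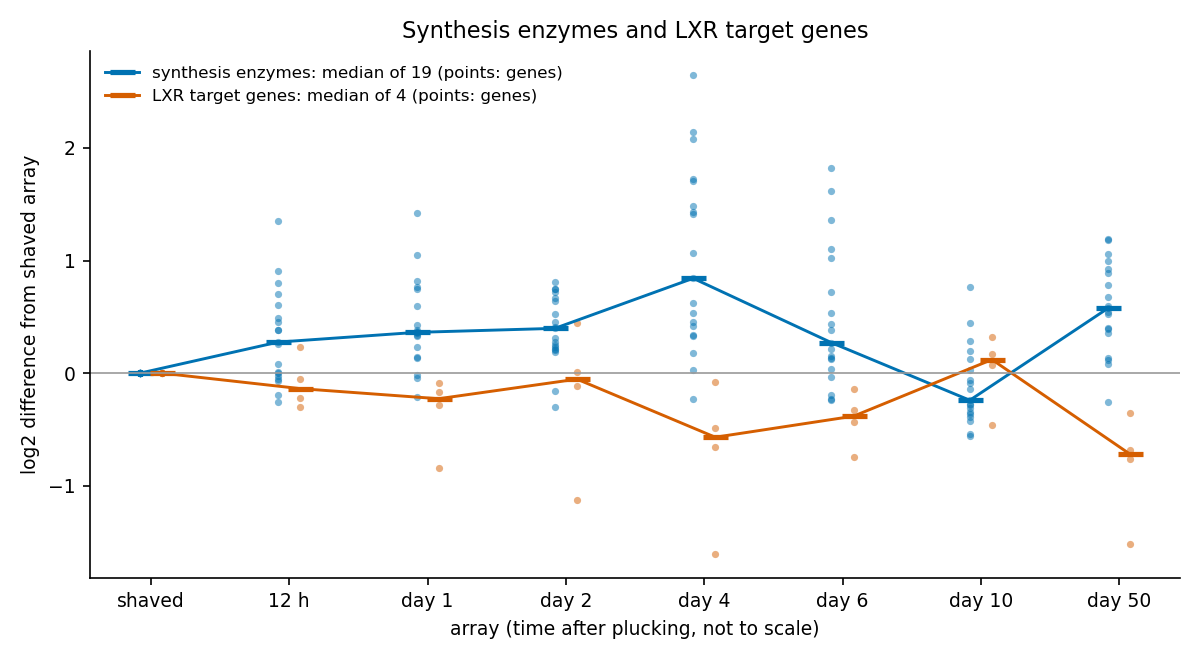
Log2 difference from the shaved array (vertical axis) on the 8 arrays in time order (horizontal axis, not to scale) for the 19 synthesis enzymes in blue and the 4 LXR target genes in orange; points are genes, horizontal marks joined by lines are the list medians. The medians are 1.41 apart on day 4 and 1.30 apart on day 50, and they cross on day 10.

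Comparisons between successive plucked arrays do not use the shaved array. From day 2 to day 4, 17 of 19 enzymes were higher, where 36.5% of all genes were, with a median step of 0.71 against -0.14 over all genes. Idi1, Fdps, Sqle and Cyp51 were the 4 enzymes with a step of at least 2-fold up (4.82% of genes), and Sqle's step was 3.58-fold. Over the same step the 4 LXR targets were all lower, with a median step of -0.51. From day 4 to day 6 the enzyme median step was -0.59, and Sqle and Cyp51 were at least 2-fold lower (2.61% of genes). From day 6 to day 10 it was -0.52, and 4 enzymes were at least 2-fold lower (4.09% of genes), again Idi1, Fdps, Sqle and Cyp51, with Fdps lower by 3.09-fold; all 4 LXR targets were higher, with a median step of 0.43. From day 10 to day 50, 18 of 19 enzymes were higher, where 49.0% of genes were, with a median step of 0.68. The 4 enzymes at least 2-fold up there (6.09% of genes) were Pmvk, Idi1, Nsdhl and Sc5d, of which Pmvk, Nsdhl and Sc5d had been within 2-fold of shaved on day 4. All 4 LXR targets were lower on day 50 than on day 10, with a median step of -0.84 and a step of -1.06 for Abcg1.

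The highest and lowest array of each gene can also be counted without a reference array. The day 4 array was the highest of the 8 for 11 of 19 enzymes, where it was for 15.2% of the 26129 genes well above background on all arrays. The day 10 array was the lowest for 12 of 19 enzymes (16.4% of genes), and the shaved array for 6 (7.42%). Of the LXR targets, 3 of 4 were lowest on day 50 (14.0% of genes) and Abcg1 on day 4 (25.8% of genes).

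The size of every difference from the shaved array rests on that single sample. Set against the day 50 array instead, the enzyme median was 0.44 on day 4, and 4 enzymes rather than 9 were at least 2-fold higher, where 6.85% of genes were. There 14 of 19 enzymes lay above the day 50 array, against 39.2% of genes. At 12 h, day 1, day 2 and day 6 the enzyme median changed sign, to -0.20, -0.22, -0.27 and -0.17, and the LXR target median was above 0 at all 6 times. On day 4 it was 0.15, with Abca1 at 0.03, Mylip at 0.27 and Apoe at 0.28 above the day 50 array and Abcg1 at -0.09. The value for Abcg1 is smaller than the technical spread between probes, so the low day 4 levels of all 4 targets are not seen against day 50. The excess of the enzymes at those 4 times over the shaved array was thus not seen against the day 50 array, while the day 4 array stood above both. With the background corrected by normexp in place of the scanner software's own, several differences fell short of 2-fold. On day 4 this was so for Dhcr7 (0.93), which left 8 enzymes, and on day 6 for Cyp51, Hsd17b7 and Stard4 (0.74, 0.67 and 0.93). On day 50 it was so for Idi1, Hsd17b7 and Insig1 (0.98, 0.96 and 0.93), and at 12 h for Srebf2 (-0.96). With the mean over probes, Hsd17b7 on day 6 and day 50 (0.43 and 0.94) and Stard4 on day 6 (0.86) fell short too.

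Of 34 further genes of the pathway, chosen for their roles in SREBP processing, sterol esters, oxysterols, lipoproteins and fatty acid synthesis, 6 were 2-fold from shaved at any time. The share of all genes 2-fold apart at any time is not given here, so this count cannot be read as high or low. On day 4 none of the 34 was 2-fold higher (5.89% of all genes), 3 were 2-fold lower, near the share of all genes (6.62%), and 8 of 34 lay above the shaved array (38.4%). Ch25h, which makes an oxysterol that binds LXR and holds back SREBP, read -3.08 on the shaved array, -1.71 at 12 h, -3.09 on day 1, -3.67 on day 2, -4.78 on day 4, -4.15 on day 6, -3.75 on day 10 and -3.82 on day 50. Its difference was 1.37 at 12 h and -1.70 on day 4, on opposite sides of the shaved array. The day 4 level of Ch25h lies in the range of Stard4's second probe (-6.07 to -3.99), well above background on only 3 of 8 arrays. The size of the day 4 difference is therefore uncertain. Lipa, the lysosomal acid lipase that frees cholesterol from its esters, read 2.40 on the shaved array, 1.76 at 12 h, 1.65 on day 1, 1.59 on day 2, 1.03 on day 4, 1.63 on day 6, 2.18 on day 10 and 1.49 on day 50, lowest on day 4. Pltp, the phospholipid transfer protein and a known LXR target, read 5.33 on the shaved array, 4.12 at 12 h, 4.30 on day 1, 4.51 on day 2, 4.01 on day 4, 4.56 on day 6, 5.30 on day 10 and 4.42 on day 50; like Apoe and Abca1 it was close to shaved on day 10, but it was already low at 12 h. Cyp7b1, which breaks down oxysterols, read -0.70 on the shaved array, -0.78 at 12 h, -1.32 on day 1, -1.36 on day 2, -1.70 on day 4, -1.47 on day 6, -0.71 on day 10 and -1.76 on day 50, with a difference of -1.06 on day 50. Stard5, a sterol-binding relative of Stard4, read -0.19 on the shaved array, -0.51 at 12 h, -0.74 on day 1, -0.60 on day 2, -0.46 on day 4, -0.41 on day 6, -0.54 on day 10 and -1.19 on day 50, and its one 2-fold difference was -1.01 on day 50. Fasn, the fatty acid synthase driven by SREBP1, read 1.95 on the shaved array, 1.37 at 12 h, 2.16 on day 1, 2.99 on day 2, 2.59 on day 4, 2.23 on day 6, 1.54 on day 10 and 3.62 on day 50. It was highest on day 50, 1.67 above shaved, and its day 4 difference, 0.64, was smaller than those on day 2 and day 50, so it did not peak with the sterol enzymes. The 8 genes of SREBP processing and turnover, such as the proteases Mbtps1 and Mbtps2, stayed within 0.54 of shaved at every time.

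Markers of other cell types moved over the same arrays, and fewer cells of a type cannot be told apart here from less RNA per cell. All 6 markers of mature fat cells were well above background on all 8 arrays. Their median difference was -0.78 on day 4, -0.85 on day 6 and -0.86 on day 10. Their summed level (log2 of the sum over the list's probes, given only to set arrays side by side) ran from 8.30 on day 6 to 9.52 on day 2, with 9.16 on the shaved array. Genes of dividing cells were all 6 at least 2-fold higher on day 4 and day 6, with medians of 2.81 and 1.64, and a summed level of 5.07 on day 4, 3.96 on day 6, 2.31 on the shaved array and 1.31 to 1.91 on the others. The synthesis enzymes were highest on that same day 4 array. On day 50 the enzyme median was 0.58 and the dividing-cell median -0.87. The part of dividing cells in the enzyme levels was not tested. From day 10 to day 50, where 18 of 19 enzymes were higher, all 6 fat-cell markers were higher too, with a median step of 1.05 and 4 of them at least 2-fold. Over that step 5 of 6 sebocyte markers were higher, with a median of 1.25, and the 6 hair genes had a median of -4.33.

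Hair shaft and inner root sheath genes had medians of 8.01 on day 4, 8.24 on day 6 and 6.97 on day 10, although the design text places the tissue outside the follicles. The medians of these hair genes were also 3.27 at 12 h, 0.60 on day 1, 3.96 on day 2 and 2.75 on day 50. All 6 were at least 2-fold higher than shaved at every plucked time except day 1. Their summed level was 1.35 on the shaved array, 4.61 at 12 h, 1.90 on day 1, 5.24 on day 2, 8.40 to 9.48 from day 4 to day 10 and 3.88 on day 50. They stayed high on day 10, where the enzyme median was -0.24. Genes of the interfollicular epidermis had medians of 2.51 at 12 h, 3.46 on day 1, 2.13 on day 2, 2.01 on day 4, 0.87 on day 6 and -1.51 on day 10, with a summed level from 3.56 on day 10 to 8.07 on day 1. Genes of sebaceous gland cells, which make much sterol and lipid, had a median of 0.74 on day 4 and -0.42 on day 6, and a summed level from 4.13 on day 4 to 5.27 at 12 h, with 3 of 6 at least 2-fold higher on day 4. That sum is lowest where the median is highest, and its brightest probe, for Plin2, differed by -0.70 on day 4. None of these markers was at 0, and 1 sebocyte marker on day 10 was the only one not well above background. The part of these cells in the enzyme levels was not tested.

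Macrophages express Abcg1, Abca1, Apoe, Npc2, Lipa and Pltp strongly. The median of 8 macrophage markers was -0.83 at 12 h, -0.87 on day 1, -1.54 on day 2, -1.68 on day 4, -0.40 on day 6, -0.39 on day 10 and -1.12 on day 50. All 8 were at least 2-fold lower on day 4 and 6 of 8 on day 50, among them Cd68, at 3.74-fold and 2.66-fold lower. Their summed level was 8.20 on the shaved array, 6.76 on day 4, 7.14 on day 50 and 7.97 on day 10. The 2 lowest times of the LXR targets, day 4 and day 50, were thus times of low macrophage markers, and day 10, where their median was highest, was a time when that median was -0.39, with Aif1 3.15-fold lower; but on day 2 the macrophage median was -1.54 and the LXR target median -0.05. The part of macrophages in the LXR target levels was not tested.

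**Figure D5:**
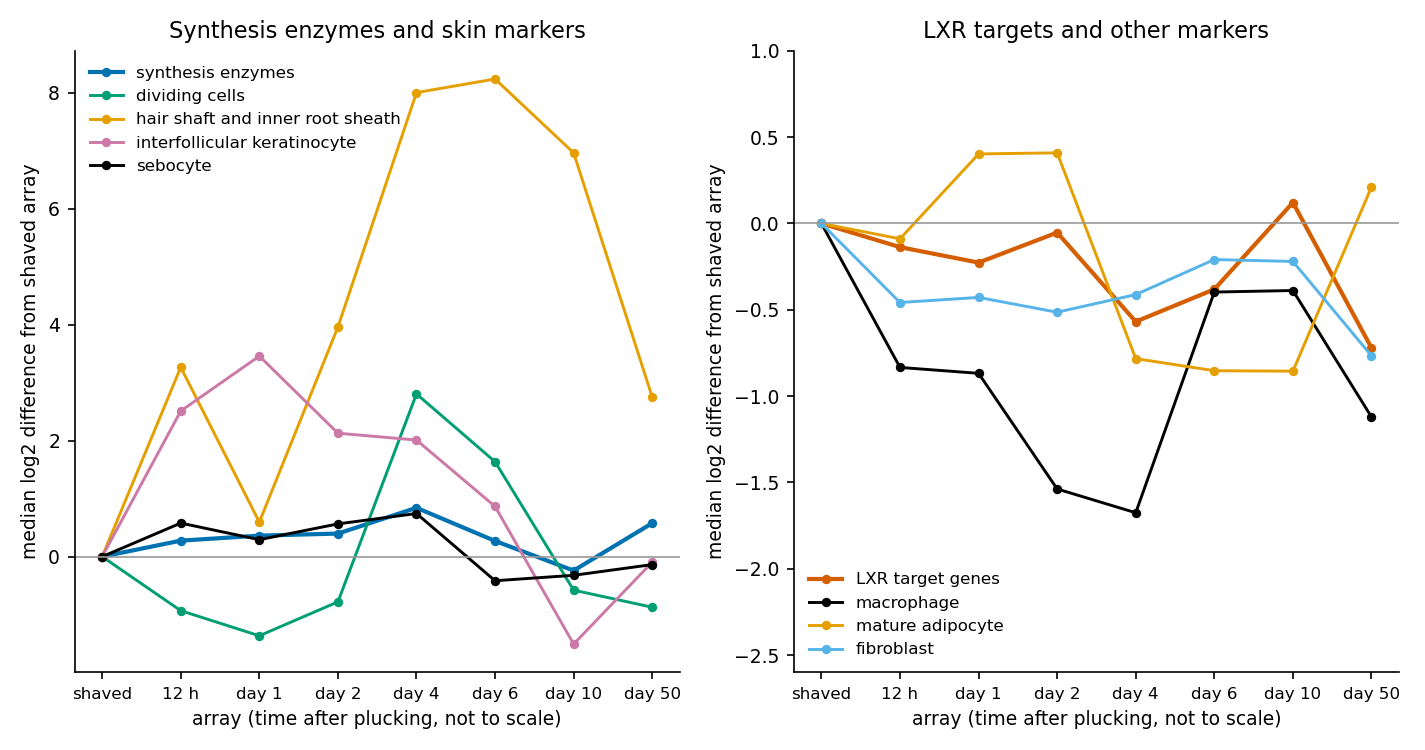
Median log2 difference from the shaved array (vertical axes) of the synthesis enzymes with markers of dividing, hair, epidermal and sebaceous cells (left) and of the LXR targets with markers of macrophages, fat cells and fibroblasts (right), on the 8 arrays in time order (horizontal axes, not to scale). Dividing-cell genes peak with the enzymes on day 4, at 2.81, and the macrophage median is lowest, at -1.68, on the same array.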

How the data were processed

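The deposited files hold the intensity of each Cy3 spot as processed by Agilent Feature Extraction 10.5.1.1, with background subtraction, detrending and surrogates for dim spots, per the file headers; they record no normalization between arrays. Probe positions are on mm9, whose annotation was not used here, so exons and UTRs are not named. All 8 arrays share 1 slide and 1 scan time.

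Control and outlier spots were left out, a probe's spots were averaged, and 55668 of 55681 probes were kept. Each value is log2 intensity minus the array's 75th percentile. A gene with several probes was read from the one with the highest mean level. Values on every array are given for members at least 2-fold from shaved at any time, the LXR targets, Srebf2 and Insig1, and for the 6 further pathway genes with the largest such differences. The members and lists were chosen with earlier results of these data known. With 1 array per group no test was run; the counting was checked on simulated data. Python 3.11.15, numpy 2.4.6 and pandas 2.3.3 (also for the quantile alternative), R 4.3.3 and limma 3.58.1 (normexp alternative) were used. Other probes, scalings, thresholds and the day 50 array as reference were tried.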

Additional observations from a re-analysis of the deposited data

How the results depend on the processing

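The enzyme and LXR target medians and the counts of enzymes against the shaved array kept their direction, and counts stayed within 1.5 times, under centring on detected probes, the mean over probes and a filter on both arrays; normexp changed 1 of them, to 3 enzymes higher on day 6, and quantile normalization 1, a gap of 0.49 between the medians on day 6. Normexp gave fewer 2-fold genes among all tested, by 1.57 to 2.99 times, such as 1082 higher and 888 lower on day 4 in place of 1703 and 1912. At a 1.5-fold threshold 5 enzymes were higher at 12 h, 6 on day 1, 6 on day 2, 1 on day 10 and 9 on day 50. The share of all genes at 1.5-fold is not given here, so these counts cannot be read as an excess over it. Against the day 50 array the enzyme median was -0.20 at 12 h, -0.22 on day 1, -0.27 on day 2, 0.44 on day 4, -0.17 on day 6 and -0.68 on day 10; the LXR target median was 0.56, 0.49, 0.67, 0.15, 0.34 and 0.84, and the gap -0.76, -0.72, -0.94, 0.29, -0.51 and -1.53. There 0 enzymes were higher at 12 h, 0 on day 1, 4 on day 4 (6.85% of genes) and 1 on day 6, and 4 were lower on day 10 (6.09% of genes). The shares at 12 h, day 1 and day 6 are not given here. Of differences that were 2-fold against shaved, those that changed sign there were Srebf2 at 12 h (0.38) and day 6 (0.33), Abcg1 on day 2 (0.39) and Hsd17b7 on day 6 (-0.17); of smaller ones on day 4, Apoe (0.28), Mylip (0.27), Abca1 (0.03) and Insig1 (-0.999) did. The second probe of Srebf2, and the rule that all detected probes of an enzyme be 2-fold apart, were chosen after seeing the data. That probe gave 0.23 at 12 h, 0.17 on day 1, 0.65 on day 4 and 0.63 on day 6. The rule on all detected probes left each count of enzymes within 1.5 times. It gave 7 on day 4, 4 on day 6 and 2 on day 50, in place of 9, 5 and 3. The cause of these changes was not tested. No paired analysis was possible because each group holds 1 array and all share the number 1. With 1 array a group, the number of arrays limits the precision, and mouse, age, time and array cannot be told apart.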
